A study of Drosophila melanogaster with 12 samples.

Results

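Gene expression in the larval fat body of Drosophila melanogaster was compared between libraries labelled svp RNAi and control libraries, both from larvae raised on the control diet. The comparison took every gene of the table and the 6 libraries of that diet, 3 labelled svp RNAi and 3 control, of 12 libraries in all. After removal of rows whose names repeat, differ only in case or are bare numbers, 9367 genes of 9527 rows were tested. Fathers came from the VDRC 60100 stock, the control, or from the VDRC 100762 stock, which carries UAS-Svpi, a hairpin construct directed at svp. Mothers were virgin females of the driver line, which supplied UAS-Dcr2 on the X chromosome and r4-GAL4, a driver active in the fat body. All groups therefore carried the driver and Dcr2, and the hairpin came from 1 stock. All were female wandering larvae of the third instar, and the control food held 0.15 M sucrose. The 6 other libraries, of the same crosses on food with 0.7 M sucrose, were used to share the estimate of spread and to set the genotype difference beside that on the other diet. The labels do not state whether the libraries of a group were separate pools of larvae, so the p-values describe only the spread between these libraries, which may be technical.

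The seven-up gene svp encodes an orphan nuclear receptor of the COUP-TF family, a group of DNA-binding transcription factors that often act as repressors. The fat body is the insect counterpart of liver and adipose tissue. It stores triglyceride and glycogen, turns over amino acids, secretes most haemolymph proteins, including the storage hexamerins that fill the blood before metamorphosis, and produces antimicrobial peptides.

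The values are the authors' normalized abundances, on a read-like scale set to a common library size but not per gene length, so levels are compared between libraries and not between genes. Over the 9367 genes kept, the deposited values of the 6 libraries summed to between 4663394 and 6490130. Shares of a library's total given below are shares of these sums. The reads recovered from them numbered 4381014 to 6163479. Defining fat body genes were plentiful in every library, with Lsp2, a storage hexamerin, at 473980 to 703520 and Rfabg (apolpp), the lipophorin apolipoprotein, at 31724 to 45362. Of the 15 fat body markers as a whole, 8 were lower in the libraries labelled svp RNAi and 1 higher, with a median log2 fold change of -0.678. Their summed level was 1557684 to 1685416 in control and 997595 to 1346063 in those libraries, and the list holds Lsp1 and lipid genes described below. Control replicate 3 stood apart, since CR41583, CR40677 and CR40546 took 16.6% of its total against 4.02% to 6.83% in the others. It also had the fewest recovered reads, 4381014. Without control replicate 3, 299 genes were called higher and 308 lower in the comparison below. The targeted gene went against its label. The level of svp was 516.1, 477.1 and 373.4 in the control libraries and 1658, 1664 and 1350 in the libraries labelled svp RNAi. All labelled libraries lay above all controls, with a log2 fold change of 1.78 ± 0.16 (SE) and an adjusted p of 6.8e-06 in limma. On high sugar svp was also higher in the labelled libraries, at 1.46 (limma adjusted p = 2.2e-05). In a value per gene, reads of the hairpin transcript, a higher level of the gene's own mRNA in the hairpin stock and exchanged group labels cannot be told apart. Exchanged labels would turn every direction given here. Every direction below is therefore given for the libraries labelled svp RNAi, and not for loss of svp.

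Of the 9367 genes, 400 were higher and 402 lower in the libraries labelled svp RNAi, at a limma p adjusted over all genes under 0.05, which is called a call here. These are 4.27% and 4.29% of the genes tested, or 8.56% in either direction. The 3 labelled libraries lay all above or all below the 3 controls for 26.1% of genes, and for all but 4 of the calls. At least 2-fold differences made up 153 of the higher and 216 of the lower calls, and at least 8-fold differences 13 and 17. The median log2 fold change was 0.885 among the higher calls, -1.058 among the lower calls and 0.006 over all genes. Without labelled replicate 1, 233 higher genes were called in place of 400, and without control replicate 2, 280 lower genes in place of 402. When each of the 12 libraries was left out in turn, 202 higher and 235 lower genes were called every time. In bulk tissue, fewer cells of a type and less RNA per cell cannot be told apart.

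The calls were unevenly spread over the gene lists drawn up for this tissue. These lists were chosen with earlier results of these data known, and 21 entries were corrected after values were seen. The shares called are therefore a description. Among the 45 lists of pathways or gene families, shares of called members were highest in the enzymes of glycine, folate and methyl group metabolism, in storage proteins and in antimicrobial peptides. No member was called among 84 cytosolic ribosomal protein genes, 74 mitochondrial ribosomal protein genes, 76 genes of translation factors and tRNA synthetases and 39 genes of the nucleolus and RNA polymerase I. In limma at an unadjusted p under 0.05 these lists held 3, 8, 5 and 3 genes, against 2069 over the whole table, and limma voom on recovered reads called 0, 0, 1 and 0 of them.

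**Figure D1:**
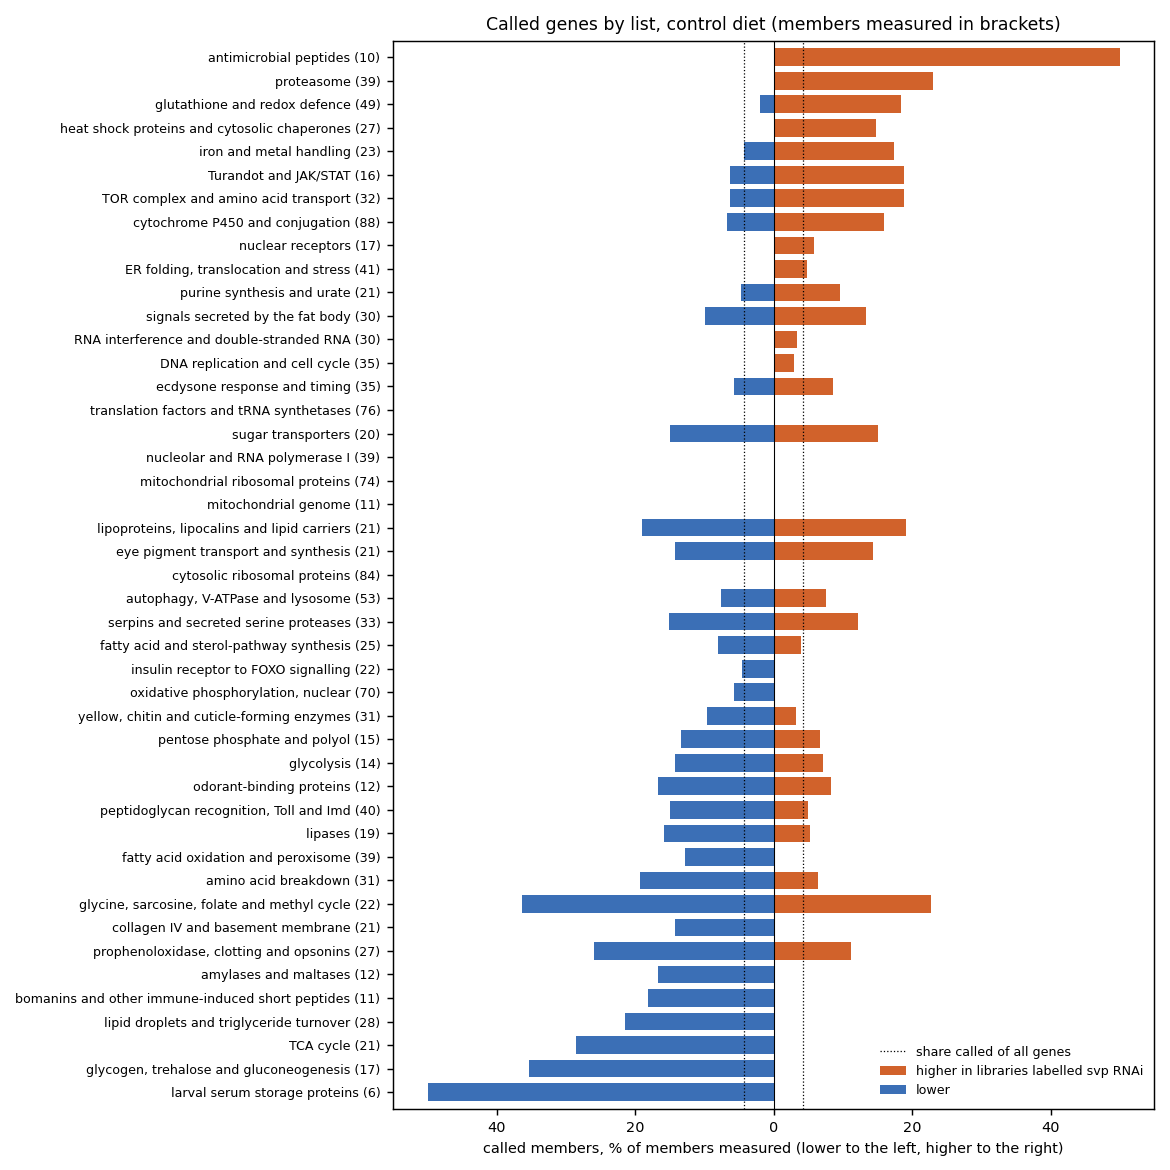
Called genes in each of 45 lists of pathways or gene families on the control diet, as a percentage of the members measured (in brackets), lower in the libraries labelled svp RNAi to the left and higher to the right; dotted lines mark the shares of all 9367 genes called lower (4.29%) and higher (4.27%). Antimicrobial peptides have 5 of 10 members higher, the storage protein list, with Fbp1 and Fbp2, 3 of 6 lower, and the ribosomal and translation lists have none. The lists were chosen with earlier results of these data known.

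The called genes for enzymes of serine, glycine and methyl groups moved in opposite directions at different steps. Of 22 genes of glycine, sarcosine, folate and the methyl cycle, 5 were higher and 8 lower, and 9 had no call; the median was -0.028. Methyl groups are activated on S-adenosylmethionine, and in fat body and liver the surplus is passed to glycine, which gives sarcosine that a mitochondrial enzyme then breaks down. The genes for these steps were lower.

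CG6188 (Gnmt), the glycine N-methyltransferase that makes sarcosine, measured 2380, 2559 and 3413 in control and 204.2, 374.3 and 421 in the labelled libraries. Every labelled library was far below every control, and the gene fell by 3.11 ± 0.40 (SE) on the log2 scale (adjusted p = 0.00014, limma). The next enzyme, sarcosine dehydrogenase, CG6385 (Sardh), had the largest fall of all calls whose groups did not overlap, from 942.3, 1247 and 1323 to 26.58, 42.59 and 85.42. The 2 groups lay over 10-fold apart at their nearest libraries, with a log2 fold change of -4.62 ± 0.56 (SE). Sam-S, which makes S-adenosylmethionine, fell from 1722, 1410 and 1484 to 596.9, 600.1 and 611.9, and the labelled libraries were nearly equal. CG6415, the aminomethyltransferase of the glycine cleavage system, fell by 1.72 ± 0.18 (SE), and pug, a trifunctional folate enzyme, fell by 1.36 ± 0.16 (SE). The glycine decarboxylase gene of the same cleavage system, CG3999, measured 1767, 2712 and 2388 in control and 3268, 2572 and 2195 in the labelled libraries. Its groups overlapped and it had no call (adjusted p = 0.55).

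The enzymes that make serine and glycine were on the other side. The phosphoserine phosphatase gene aay measured 145.7, 149.4 and 159.8 in control and 1496, 1094 and 755.6 in the labelled libraries. The controls were tightly grouped and all labelled libraries were several-fold higher, with a log2 fold change of 2.82 ± 0.28 (SE) and an adjusted p of 1.8e-05 in limma. CG11899, the phosphoserine aminotransferase one step earlier, rose by 1.55 ± 0.17 (SE) on the log2 scale. CG3011 (Shmt), the serine hydroxymethyltransferase that converts serine to glycine, rose by 1.15 ± 0.17 (SE), and Eip55E (Cth), the cystathionine gamma-lyase that yields cysteine, by 0.98 ± 0.15 (SE). The first enzyme of serine synthesis, CG6287, had a log2 fold change of 0.32 and no call, with control libraries at 612.8 to 862 and labelled libraries at 878.2 to 1044. Of the 13 calls in this list, 10 were made in every run that left out 1 library.

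**Figure D2:**
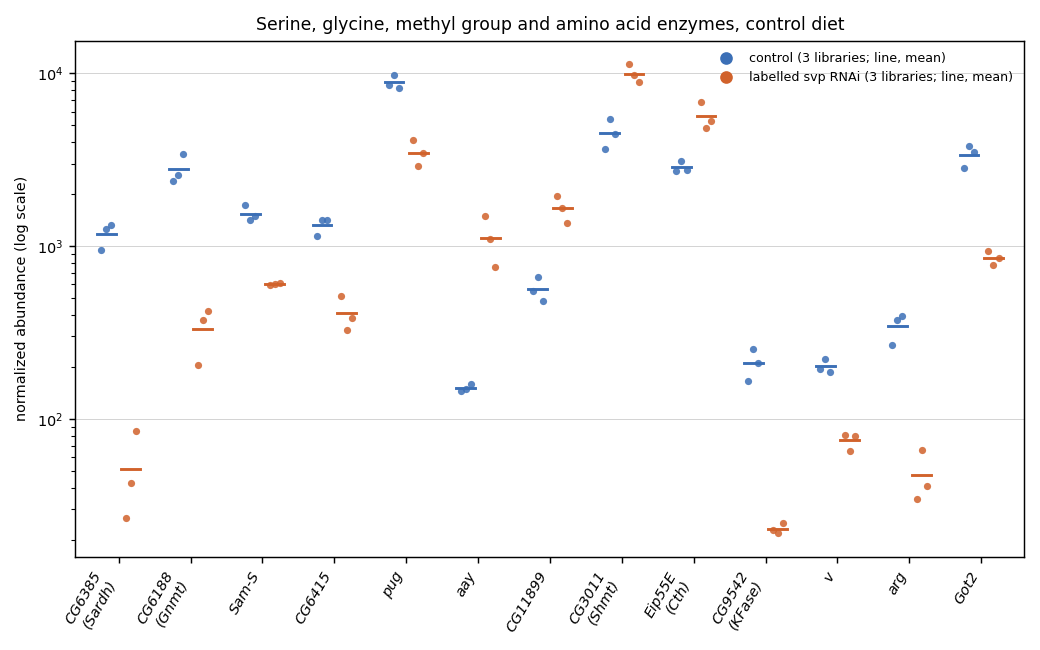
Normalized abundance (log scale) of serine, glycine, methyl group and amino acid enzymes in the 3 control libraries and the 3 labelled svp RNAi (control diet); dots are libraries and lines are means. Only genes with a call are drawn, so CG3999, whose groups overlap, and CG6287, without a call, are left out. No pair of groups drawn overlaps, with Sardh, Gnmt and KFase lower and aay, CG11899 and Shmt higher in the labelled libraries. Values are not per gene length.

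Called genes of amino acid breakdown were mostly lower. Of 31 measured, 6 were lower and 2 higher, and the median log2 fold change was -0.224. The tryptophan pathway was down at both of its opening steps. The tryptophan 2,3-dioxygenase gene v measured 195.2, 222.8 and 185.9 in control and 80.92, 65.33 and 79.36 in the labelled libraries, without overlap. CG9542 (KFase), the kynurenine formamidase that acts on its product, went from 164.9, 253.8 and 209.1 to 22.69, 21.78 and 24.85, and fell by 3.10 ± 0.31 (SE) on the log2 scale (adjusted p = 1.9e-05, limma). The arginase gene arg fell from 267.3, 371.1 and 394.9 to 34.5, 66.19 and 41.06. Got2, the mitochondrial aspartate aminotransferase, fell by 1.98 ± 0.13 (SE). The 2 genes that rose were Gs2, a glutamine synthetase, at 1.04 ± 0.21 (SE), and Hn, the phenylalanine hydroxylase, at 0.77 ± 0.16 (SE). These 6 calls were kept in the runs that left out 1 library. The other lower genes were CG1461 (Tat), the tyrosine aminotransferase, at -1.16 and Oat, the ornithine aminotransferase, at -0.64. Their calls were lost in 8 and 6 of the 12 runs, at highest adjusted p of 0.15 and 0.18; these runs included those without control replicate 3 and without labelled replicate 3.

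Tryptophan breakdown feeds the brown ommochrome pigments and Hn is also an eye colour gene, so the eye pigment genes were examined as a group. Of 21 measured, 3 were higher and 3, v, pug and p, lower. The 3 higher were bw, Hn and Pu, the GTP cyclohydrolase gene that opens pteridine synthesis, at 0.73 ± 0.17 (SE). The call of Pu was lost when control replicate 3 or labelled replicate 1 or 2 was left out (highest adjusted p = 0.074). The ABC transporter gene bw measured 43.62, 107.7 and 91.24 in control and 3201, 2313 and 2358 in the labelled libraries, with no overlap, and its log2 fold change of 5.08 ± 0.32 (SE) headed the whole table. The gene st, which encodes the transporter partner for tryptophan-derived pigment precursors, lay between 2.945 and 9.354 in all 6 libraries and had no call. Of 21 genes of purine synthesis and urate 2 were higher and 1 lower. Prat2, for the opening enzyme of purine synthesis, rose by 0.94 ± 0.14 (SE) and CG16758, a purine nucleoside phosphorylase, by 0.88 ± 0.19 (SE). The lower gene was bur, the GMP synthetase, at -0.48, whose call was lost without control replicate 2 or 3 or labelled replicate 2 or 3 (highest adjusted p = 0.1).

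Immune genes split by class. Of 10 antimicrobial peptide genes 5 were higher and none lower, with a median log2 fold change of 2.232. Mtk, the metchnikowin gene, measured 84.41, 49.27 and 47.03 in control and 2832, 944.5 and 2660 in the labelled libraries, so that the groups lay apart although the labelled libraries differed among themselves. Dro and AttA rose by 4.50 ± 0.58 (SE) and 4.40 ± 0.54 (SE) on the log2 scale, and AttB and AttC by 2.87 ± 0.41 (SE) and 2.35 ± 0.33 (SE). AttA and AttB are near-identical copies, between which the authors' counting may have divided reads. Drs, the drosomycin gene and a standard readout of the Toll pathway, did not follow. It measured 534.1, 1199 and 326.5 in control and 700.5, 321.5 and 1436 in the labelled libraries, overlapping throughout, with an adjusted p of 0.88 in limma. DptB, a standard readout of the Imd pathway, measured 28.59, 15.75 and 14.12 against 54.35, 4.239 and 37.41, also overlapping. Not every uncalled peptide gene overlapped. In 6 of the 10, the 5 called among them, every labelled library lay above every control, as in 1290 of the 9367 genes tested. A log2 fold change above 0 was found for 8 of the 10.

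A list of 11 bomanins, which are Toll effectors, and other immune-induced short peptides held no higher call, and 2 were lower. CG16712 (IM33), which is not a bomanin, fell by 1.85 ± 0.27 (SE) on the log2 scale, from 1136, 1674 and 1858 to 380.8, 435.5 and 456.8. CG15068 (BomS6), the bomanin with a call, fell by 2.96 ± 0.68 (SE), and its call was lost without control replicate 1 or 2 or labelled replicate 2 (highest adjusted p = 0.063).

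Upstream of these effectors, 6 of 40 genes of peptidoglycan recognition and of the Toll and Imd pathways were lower and 2 higher. The secreted protease gene psh, whose product acts ahead of the Toll ligand, measured 113, 125.9 and 128.7 in control and 12.81, 21.3 and 13.9 in the labelled libraries. Each labelled library was several-fold below each control, with a log2 fold change of -2.89 ± 0.46 (SE) and an adjusted p of 0.00087 in limma. SPE, the protease that processes the Toll ligand Spätzle, fell by 1.03 ± 0.19 (SE), and the receptor gene Tl by 0.58 ± 0.12 (SE). PGRP-SD, a recognition protein, fell by 3.22 ± 0.40 (SE), and PGRP-SB1, an enzyme that cleaves peptidoglycan, by 2.51 ± 0.53 (SE). Another such amidase, PGRP-SC2, went the other way, from 969.5, 779.3 and 693.5 to 4085, 3555 and 2373. All these calls held in the runs that left out 1 library.

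Stress peptides and clotting factors also split. The Turandot gene TotA, induced by heat, septic injury and other stress, measured 5884, 6625 and 6344 in control and 79081, 62951 and 78496 in the labelled libraries. It took at most 0.111% of a control library's total and at least 1.35% of a labelled one, and rose by 3.54 ± 0.25 (SE) on the log2 scale. Of 16 genes of the Turandot family and the JAK/STAT pathway 3 were higher and 1 lower, and the call of TotA alone held in every run that left out 1 library. The neighbouring genes TotB and TotC had log2 fold changes of 2.68 ± 0.70 (SE) and 1.69 ± 0.42 (SE). The groups of TotC overlapped, and both calls were lost without control replicate 1 or 3 or labelled replicate 1 or 2 (highest adjusted p = 0.11 and 0.1). Of 27 genes of phenoloxidases, clotting and opsonins, 7 were lower and 3 higher. The clotting gene fon measured 12776, 14728 and 19145 in control and 5378, 4150 and 5138 in the labelled libraries. These groups did not overlap, and the fall was 1.66 ± 0.20 (SE) on the log2 scale (adjusted p = 8.5e-05, limma). nimB2, a secreted Nimrod protein, fell by 1.99 ± 0.17 (SE), Idgf5 fell by 1.36 ± 0.15 (SE) and the clotting gene Hml, also a marker of blood cells, by 1.12 ± 0.13 (SE). lectin-28C rose by 1.0 ± 0.20 (SE). Of the 21 blood cell markers, 3 were lower and 2 higher. The defining markers eater and nimC1 had log2 fold changes of -0.01 and 0.28 with no call, and the summed level of the list ran from 15365 to 19005 in control and from 13767 to 16044 in the labelled libraries. Whether blood cells attached to the tissue take part in these differences was not tested.

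**Figure D3:**
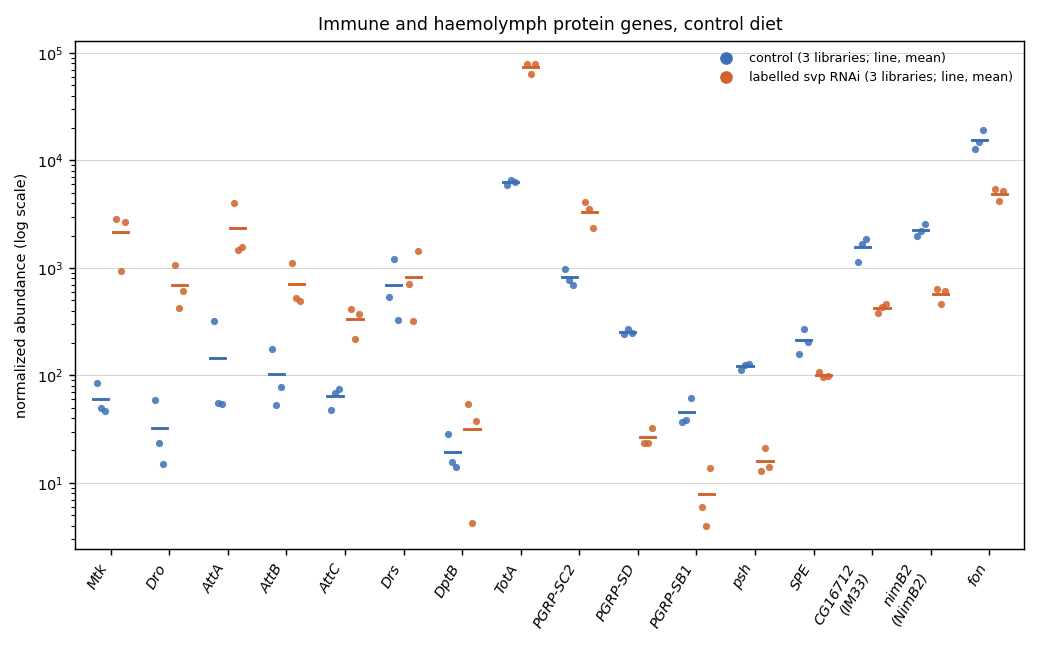
Normalized abundance (log scale) of immune and haemolymph protein genes in the 3 control libraries and the 3 labelled svp RNAi (control diet); dots are libraries and lines are means. Mtk, Dro, the attacin genes, TotA and PGRP-SC2 lie higher in all labelled libraries, PGRP-SD, PGRP-SB1, psh, SPE, IM33, nimB2 and fon lower, and Drs and DptB overlap.

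The storage protein list holds the Lsp1 genes and Lsp2, and also Fbp1 and Fbp2, which are not hexamerins. The whole list took 26.6% to 31.5% of a control library's total and 21.6% to 25.3% of a labelled one. Of its 6 members 3 were lower, with a median log2 fold change of -1.060. Lsp1alpha measured 188400, 180120 and 218020 in control and 11227, 10858 and 21000 in the labelled libraries, a log2 fold change of -3.83 ± 0.36 (SE). Lsp1beta went from 326460, 317770 and 323660 to 140900, 62091 and 120400, and Lsp1gamma from 213730, 220830 and 225910 to 116370, 66305 and 96834. In all 3 genes every labelled library lay below every control, and together they took 11.8% to 13.4% of a control library's total and 2.99% to 4.84% of a labelled one. Lsp1beta fell by 1.66 ± 0.35 (SE) and Lsp1gamma by 1.28 ± 0.30 (SE). Lsp1gamma lost its call without control replicate 2 or 3 or labelled replicate 2 (highest adjusted p = 0.076), and neither Lsp1beta nor Lsp1gamma was called under quantile normalization. The related Lsp2 did not follow, at 489720, 589850 and 473980 in control and 703520, 531340 and 518400 in the labelled libraries, with no call. Lsp2 alone took 7.3% to 9.86% of a control library's total and 10.5% to 12.7% of a labelled one. Fbp1, the receptor through which hexamerins are taken back up, measured 366420 to 382600 in control and 274200 to 345320 in the labelled libraries, lower in each but with no call (adjusted p = 0.73).

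Another abundant secreted protein, the odorant-binding protein Obp99b, took 3.77% to 3.89% of a control library's total and 1.79% to 2.3% of a labelled one. Its log2 fold change was -1.12 ± 0.30 (SE) with an adjusted p of 0.032, and it was 0.00 under quantile normalization. The call was also lost when any control library or labelled replicate 2 or 3 was left out (highest adjusted p = 0.13). Obp99a fell by 1.51 ± 0.21 (SE), and Obp49a rose by 2.13 ± 0.44 (SE), a call lost under robust variance moderation (adjusted p = 0.051). No other of the 12 odorant-binding protein genes was called, with Obp99c at 0.12.

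Lipid carriers were divided evenly, with 4 of 21 higher and 4 lower, whereas lipid droplet genes with a call were all lower. NLaz, a lipocalin related to apolipoprotein D, measured 60.83, 46.07 and 97.07 in control and 262.4, 328.2 and 244.1 in the labelled libraries, without overlap, and rose by 2.07 ± 0.27 (SE) on the log2 scale. The lipocalin gene Karl rose by 1.14 ± 0.24 (SE) and the sterol-binding Npc2a by 1.03 ± 0.13 (SE). CG15828 (Apoltp), which encodes the particle that loads lipid onto lipophorin, fell by 1.45 ± 0.17 (SE). Npc2g and Npc2h fell by 1.75 ± 0.16 (SE) and 1.68 ± 0.32 (SE). Rfabg, the lipophorin itself, had no call at -0.04.

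Among 28 genes of lipid droplets and triglyceride turnover, 6 were lower and none higher, with a median of -0.216. The lipase gene bmm, the counterpart of adipose triglyceride lipase, measured 256.3, 208.7 and 243 in control and 155.9, 110.8 and 91.99 in the labelled libraries. No labelled library reached a control, and bmm fell by 1.0 ± 0.18 (SE) on the log2 scale (adjusted p = 0.002, limma). Lip4, another lipase gene, fell by 1.64 ± 0.22 (SE), and Lsd-1, the perilipin that coats the droplet, by 0.68 ± 0.14 (SE). These 3 calls held in every run that left out 1 library, whereas those of mdy, Cct1 and CG42351 (Jabba) were each lost in at least 2 runs. In a separate list of 19 lipase genes 3 were lower and 1 higher. The higher one, CG5966, measured 1710, 1398 and 1690 in control and 3816, 3363 and 2798 in the labelled libraries. It rose by 1.05 ± 0.18 (SE), and its call held in every run that left out 1 library. In fatty acid oxidation and peroxisomes 5 of 39 genes were lower and none higher, led by CG14815 (Pex5), the import receptor of peroxisomes, at -1.14 ± 0.20 (SE). The peroxisomal acyl-CoA oxidase genes Acox57D-p and Acox57D-d fell by 0.90 ± 0.16 (SE) and 0.77 ± 0.16 (SE). In fatty acid synthesis CG3523 (FASN1) and desat1 were lower by 0.83 and 0.75, but no call of that list held in all runs: FASN1 had an adjusted p of 0.049 and up to 0.16 with a library left out (9 of 12 runs, any control library among them), and desat1 up to 0.058 without control replicate 1 or 3 or labelled replicate 2.

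**Figure D4:**
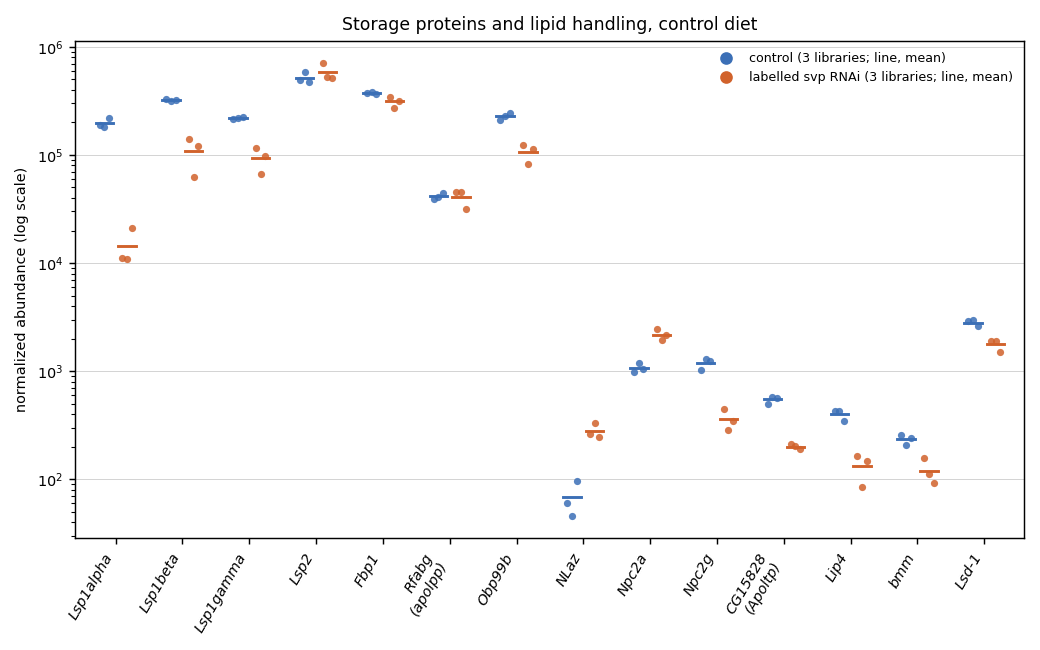
Normalized abundance (log scale) of storage protein and lipid-handling genes in the 3 control libraries and the 3 labelled svp RNAi (control diet); dots are libraries and lines are means. The 3 Lsp1 genes, Obp99b, Npc2g, Apoltp, Lip4, bmm and Lsd-1 lie lower in every labelled library, NLaz and Npc2a higher, and Lsp2 and apolpp (Rfabg) overlap; Fbp1 is lower in each labelled library but has no call.

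Genes of sugar handling were mostly lower where called. Mal-A6, a maltase that splits disaccharides, measured 960.9, 1272 and 1214 in control and 268.4, 236.8 and 297.5 in the labelled libraries. All labelled libraries were below all controls, and the fall was 2.09 ± 0.18 (SE) on the log2 scale (adjusted p = 4.9e-06, limma). Its neighbour Mal-A5 fell by 0.81 ± 0.14 (SE). Of 17 genes of glycogen, trehalose and gluconeogenesis, 6 were lower and none higher, with a median of -0.401. Among 20 sugar transporters 3 were lower and 3 higher: sut1 fell by 1.33 ± 0.15 (SE) and CG4797 (pippin) rose by 0.78 ± 0.15 (SE). In the TCA cycle 6 of 21 genes were lower and none higher. Sucb, a beta subunit of succinyl-CoA ligase, fell by 1.17 ± 0.14 (SE), from 1211, 1440 and 1491 to 642.3, 522.5 and 672.4, and its groups did not overlap. The citrate synthase gene kdn fell by 0.88 ± 0.18 (SE), Mdh1 by 0.83 ± 0.15 (SE) and muc, a pyruvate dehydrogenase subunit, by 0.73 ± 0.12 (SE). Sarcomere genes, markers of muscle, moved with these metabolic genes. Of 23, 18 were lower and none higher, Mhc among them at -1.42 ± 0.21 (SE), and their summed level was 39305 to 51758 in control and 20476 to 27769 in the labelled libraries. Their part in the metabolic differences was not tested.

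Among 30 genes of hormones and growth factors that the fat body can secrete, 4 were higher and 3 lower. Growth-blocking peptides are small cytokines, some of which signal from the fat body to insulin-producing neurons, and 2 of them went in opposite directions. CG17244 (Gbp3) measured 1427, 1445 and 1305 in control and 430.2, 239.7 and 382.5 in the labelled libraries. CG15917 (Gbp1) measured 174.1, 161.7 and 153.1 in control and 534.8, 399.1 and 332.2 in the labelled libraries. Neither pair of groups overlapped, with log2 fold changes of -2.03 ± 0.32 (SE) for Gbp3 and 1.34 ± 0.21 (SE) for Gbp1, and adjusted p of 0.00083 and 0.00072 in limma. The nutrient-responsive peptide gene CCHa2 fell by 0.93 ± 0.18 (SE). Of the genes from the insulin receptor to FOXO, 1 of 22 was called, ImpL2 at -0.61, and this call was lost in 9 of the 12 runs (highest adjusted p = 0.19). InR itself measured 249.9 to 304.2 in control and 257.1 to 294 in the labelled libraries. In the list of TOR complexes and amino acid transport, 6 of 32 were higher and 2 lower. The transporter gene gb, related to the cystine and glutamate exchanger, rose by 1.25 ± 0.16 (SE) and CG13384 by 1.03 ± 0.15 (SE). CG4991 fell by 2.27 ± 0.29 (SE). These 3 calls held in all runs that left out 1 library, and the number of higher genes in the list ranged from 2 to 8 across those runs.

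Of 27 genes of heat shock proteins and chaperones 4 were higher and none lower. The small heat shock protein gene Hsp23 measured 9638, 12757 and 8903 in control and 26336, 28060 and 24485 in the labelled libraries, with no overlap and a rise of 1.35 ± 0.28 (SE) on the log2 scale. Hsp70Bb, one of several near-identical copies among which reads may be divided, rose by 1.16 ± 0.16 (SE). Ire1, a sensor of unfolded protein in the endoplasmic reticulum, rose by 0.75 ± 0.15 (SE), and cathD, a lysosomal protease, by 0.95 ± 0.14 (SE). Of 39 proteasome genes 38 had a log2 fold change above 0 and 9 were called higher, with a median of 0.319. That count was unstable. It was 0 without control replicate 2 or labelled replicate 1, 1 without labelled replicate 2, 2 without control replicate 1 and 15 without labelled replicate 3, and no call held in every run. Of 53 genes of autophagy, the V-ATPase and the lysosome, cathD among them, 4 were higher and 4 lower. The lower ones were led by 2 autophagy genes: Aut1 (Atg3), an enzyme of the Atg8 conjugation system, fell by 0.95 ± 0.12 (SE) and Atg1, the kinase that starts the process, fell by 0.92 ± 0.14 (SE).

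Detoxification and redox genes were more often higher than lower. Of 88 genes of cytochrome P450s and conjugating enzymes, 14 were higher and 6 lower. Cyp310a1 measured 104.4, 82.66 and 94.88 in control and 527.9, 576 and 457.1 in the labelled libraries, well apart, and rose by 2.46 ± 0.19 (SE) on the log2 scale (adjusted p = 1.9e-06, limma). Cyp309a2 rose by 2.14 ± 0.38 (SE) and the neighbouring Cyp309a1 by 0.67 ± 0.14 (SE). The X-linked genes Cyp4d14, Cyp4d1 and Cyp4s3 fell, with log2 fold changes of -1.84 ± 0.29, -1.76 ± 0.31 and -1.09 ± 0.12 (SE). In glutathione and redox defence 9 of 49 were higher and 1 lower. The peroxiredoxin genes Prx2540-1 and Prx2540-2, near-identical copies whose reads may be shared, rose by 2.11 ± 0.33 (SE) and 1.91 ± 0.29 (SE). GstS1 was the gene that fell, by 0.62 ± 0.13 (SE). Among 23 metal-handling genes 4 were higher and 1 lower, led by the copper importer gene Ctr1B at 1.24 ± 0.23 (SE).

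Among 17 nuclear receptor genes svp was the one called. EcR, the ecdysone receptor gene, measured 967.3, 1138 and 965.7 in control and 792.3, 669.8 and 699.3 in the labelled libraries. These were lower without overlap, but the adjusted p was 0.064. usp, its dimer partner, had a log2 fold change of -0.09 and Hnf4 of -0.21, with no call. Of 35 genes of the ecdysone response and timing, 3 were higher and 2 lower. They included Eip71CD (MsrA), a methionine sulfoxide reductase, which rose by 1.18 ± 0.15 (SE), and the salivary glue gene Sgs1, which fell by 2.31 ± 0.36 (SE). Of the 9 salivary gland markers 3 were lower and none higher, with a median log2 fold change of -0.471. The glue gene Sgs3 was called lower, at -0.90 (adjusted p = 0.042, limma). Its groups overlapped, and its call was lost in 8 runs that left out 1 library. The defining salivary gland markers Sgs7 and Sgs8 had no call, at -0.46 and -0.22. The summed level of the 9 salivary markers was 12252 to 26781 in control and 13502 to 13761 in the labelled libraries. The part of these markers in the value of Sgs1 was not tested. Of 24 markers of epidermis and cuticle 1 was higher and 2 lower. A log2 fold change below 0 was found for 15, with a median of -0.474. The lower calls, Lcp3 at -1.31 and Cpr49Af at -1.61, were lost in 2 and 5 runs that left out 1 library. The higher call was that of Pcp, a pupal cuticle protein gene. Pcp measured 1642, 1682 and 1334 in control and 11377, 8365 and 10910 in the labelled libraries. It lay several-fold above control in all of them, with a log2 fold change of 2.71 ± 0.19 (SE).

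Markers of other tissues were called in both directions. Of 19 neuronal markers 5 were lower and 1, Syt1, was higher. A log2 fold change below 0 was found for 18 of them, with a median of -0.651. The defining neuronal genes elav, brp and futsch had no call, with log2 fold changes of -0.38, -0.94 and -0.57. The lower call that was strongest was that of 7B2, a secretory chaperone gene, at -1.82 ± 0.19 (SE). The count of lower neuronal genes ran from 2 to 9 when libraries were left out. On high sugar 10 of the 19 were called lower and 1 higher. Among the lower there were elav at -1.01 and futsch at -0.92, and brp had no call at -0.67. Of 29 midgut markers, mostly trypsin, Jonah protease and lysozyme genes, 23 had a log2 fold change below 0, with a median of -0.519 and no lower call. The 2 that were called were higher, the lysozyme gene LysX at 1.96 ± 0.36 (SE) and the trypsin gene etaTry at 2.11 ± 0.32 (SE). The sum of the midgut list ran from 3553 to 14564 in control and from 3276 to 5997 in the labelled libraries. No imaginal disc marker of 16 was called.

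Several of the genes with the largest changes are in none of these lists. The list of autophagy, the V-ATPase and the lysosome, for example, did not hold CG31414 or CG11459. CG31414 (Gba1b), a glucocerebrosidase of glycolipid breakdown, measured 225.3, 249.6 and 203.8 in control and 10.82, 15.85 and 26.95 in the labelled libraries. CG11459 (CtsL3), a cathepsin L relative, had a log2 fold change of -3.51 ± 0.67 (SE) and CG32647 of -3.38 ± 0.33 (SE). CG4741, CG34291 and CG32667 (ssp7) were lower still, with -4.36 ± 0.39, -4.27 ± 0.68 and -3.91 ± 0.76 (SE). In each of these genes all labelled libraries were below all controls. CG3940 (CAH7), a carbonic anhydrase, measured 13.9, 24.41 and 24.69 in control and 419.4, 311.7 and 282.8 in the labelled libraries. It rose by 3.97 ± 0.22 (SE), and CG16782, CG42876 and CG30181 (ppk3), a sodium channel of the pickpocket family, rose by 3.89 ± 0.42, 3.67 ± 0.38 and 4.58 ± 0.32 (SE). All of these calls held in every run that left out 1 library. CG16782 had 0.8429 to 2.201 in the control libraries, so its fold rests on very few control reads.

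The neprilysin family recurred among the lower genes, and it was singled out after its values were seen, so its counts are a description. Neprilysins are zinc metallopeptidases that cleave small peptides. Of 23 members measured 13 were lower and 2 higher. CG14528 (Nepl18) measured 615.8, 627.5 and 521.2 in control and 17.72, 28.5 and 43.57 in the labelled libraries. All labelled libraries were over 10-fold below all controls, with a log2 fold change of -4.34 ± 0.48 (SE). CG14526 (Nepl21) went from 1202, 1298 and 1334 to 169.7, 97.66 and 183.8. CG4725 (Nepl13) and CG3775 (Nep6) had log2 fold changes of -3.16 ± 0.52 (SE) and -1.76 ± 0.20 (SE). CG8358 (Nepl12) moved the other way, from 7.914, 9.977 and 7.608 to 131.2, 134.9 and 63.58. Of these 15 calls, 14 held in every run that left out 1 library, and that of Nep2 was lost without labelled replicate 1.

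Called genes lay next to each other more often than pairs taken over the whole table, in the gene order of RefSeq Release 6. The next tested gene along the chromosome was also called for 13.7% of called genes, against 8.63% over all 9151 neighbouring pairs, and 79 of the 108 neighbouring pairs with both genes called had the same direction. Members of a local cluster can share sequence and reads. There were 8 runs of 3 or more called genes of 1 direction, and they too were listed after their values were seen. On chromosome arm 3R, the neprilysin genes Nepl18, CG14523 (Nepl19), CG14527 (Nepl20) and Nepl21 formed a run of 4, with log2 fold changes of -4.34, -1.49, -1.72 and -3.13. On the same arm CG11313, Npc2g and Npc2h were lower together, at -1.67, -1.75 and -1.68, and TotA, TotC and TotB were higher. On arm 2R Dro, AttA and AttB were higher. By arm, calls made up 8.86% of genes on 2L, 8.58% on 2R, 7.49% on 3L, 9.3% on 3R and 9.11% on X, so that calls were found on all major arms.

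The fold changes of the same genotypes on the high-sugar diet come from other libraries than those on the control diet, although the call lists share 1 estimate of spread. There 672 genes were higher (7.17%) and 583 lower (6.22%), in all 13.4% of the genes tested. Of the 802 control-diet calls, 497 were also called on high sugar in the same direction, which is 62% of the control-diet calls and 39.6% of the high-sugar calls, and 3, CG33080, CG4829 and Pp2C1, were called in the opposite direction. With a model of each diet alone, 435 genes were called on both diets in the same direction. The sign was the same on both diets for 94.6% of the control-diet calls and for 63.7% of all genes. Gnmt, aay, Shmt and KFase had log2 fold changes of -3.60, 1.52, 1.62 and -3.20 on high sugar, beside -3.11, 2.82, 1.15 and -3.10 on the control diet. For Lsp1alpha, Mtk and Nepl18 the values were -3.57, 4.25 and -3.86 on high sugar.

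The genotype difference itself was tested for a difference between diets, and 18 genes were called (0.192%). Of these, 7 were also control-diet calls, and 1105 genes had an unadjusted p under 0.05 in that limma test. With 1 library left out the count ran from 6, without high-sugar control replicate 2 or 3 or high-sugar labelled replicate 3, to 30, without labelled replicate 3 of the control diet. It was also 7, 10, 8 and 9 without control replicate 2, labelled replicate 1, labelled replicate 2 and high-sugar labelled replicate 1, and 28 without high-sugar control replicate 1. CG15553 measured 33.3 ± 9.97 (SD, n = 3) in control and 176 ± 40.5 (SD, n = 3) in the labelled libraries on the control diet, a log2 fold change of 2.38. On high sugar it was at 258 in control and 200 in the labelled libraries, and the difference between the diets was 2.76 ± 0.34 (SE), with an adjusted p of 0.0039. Mal-A6 fell on the control diet, with log2 fold changes of -2.09 there and -0.47 on high sugar. That difference of -1.62 ± 0.25 (SE) had an adjusted p of 0.017, and the call was lost without control replicate 2 or labelled replicate 2 of the control diet, or without control or labelled replicate 3 of high sugar (highest adjusted p = 0.061). Gclc, the catalytic subunit of glutathione synthesis, was higher by 1.67 on the control diet and by 2.79 on high sugar, a call lost without high-sugar control replicate 2 or 3 or high-sugar labelled replicate 1 (highest adjusted p = 0.054). The 4 other genes with the smallest adjusted p, CG8389, CG8665, Cyp6d5 and CG6839, had no call on the control diet.

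**Figure D5:**
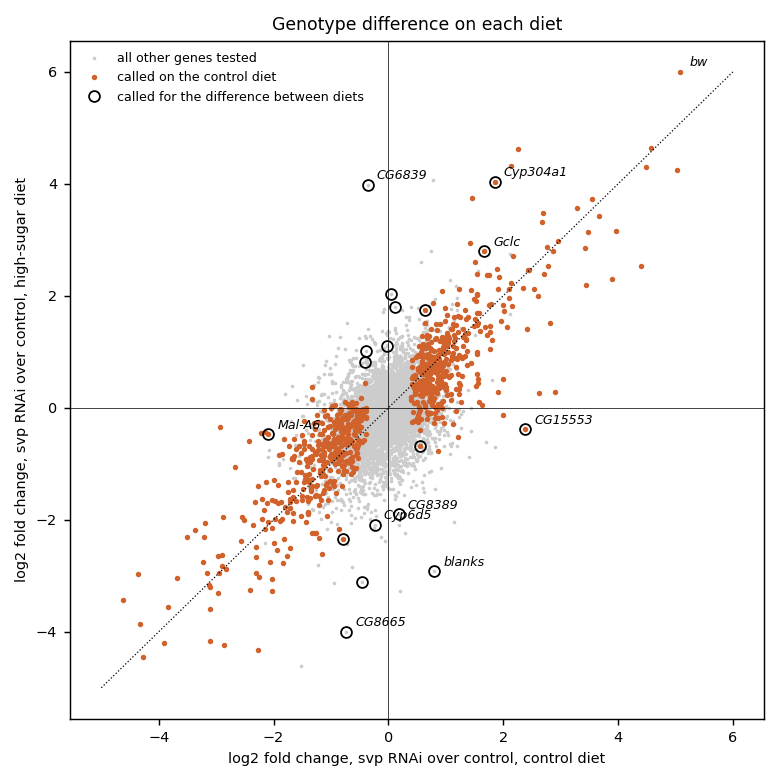
Log2 fold change of the libraries labelled svp RNAi over control for each of 9367 genes, on the control diet (x axis) and on the high-sugar diet (y axis); coloured dots are the 802 control-diet calls, circles the 18 genes whose genotype difference differed between diets, and the dotted line marks equal values. Most coloured dots lie at the lower left and upper right, 759 of 802 having the same sign on both diets.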

How the data were processed

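Fat body RNA of 12 libraries was measured, and the 6 of the control diet form the comparison. Tissue was freed by dissection and shearing and spun down, and Trizol RNA was cleared of rRNA by RiboZero and sequenced on an Illumina HiSeq, per the labels' protocols. Per the submitters' processing notes the authors worked with genome build dm3 and with edgeR, Cufflinks 1.1.0, TopHat 1.3.2 and Bowtie 0.12.7. How reads were counted, with which annotation, strand setting and filter, is not given in the sources used here, so overlapping and antisense genes cannot be told apart. The authors deposited a signal for each gene, named normalized abundance, which is not per length. The values have the form of edgeR pseudo-counts, read numbers moved to a shared effective library size within each diet by a step that depends on the gene's level, so the totals still differ between libraries and the values are not linear multiples of reads. Every gene kept had a value above 0 in every library.

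From the 9527 rows, 156 with names that repeat or differ only in case and 4 whose names are bare numbers were left out. Values were tested as log2(value + 1) with limma 3.58.1 in R 4.3.3, with an intensity trend and 1 model of 4 group means fitted to the 12 libraries. The p-values were adjusted by Benjamini-Hochberg over all 9367 genes, and an adjusted p under 0.05 made a call. This scale understates fold changes of low genes. A minimum mean of 1 removed 0 genes. Inverting the library adjustment gave numbers within 0.1 of a whole read for at least 99.87% of low values in every library; these recovered reads were used for depth and for 1 alternative with limma voom, which stood in place of a count test.

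Members, lists and tests were chosen with earlier results of these data known, and 21 list entries were corrected after values were seen. The genes named are svp, the 10 higher and 10 lower with the largest change among calls whose libraries do not overlap, called members of the lists with some uncalled ones given by value, the 5 with the smallest interaction p and the 10 most abundant; the neprilysin family and runs of neighbours were added after their values were seen. Symbols are as deposited, with the RefSeq Release 6 symbol in brackets (7013 matched a symbol and 2166 a synonym, 152 were ambiguous and 36 had no match). Since the files use dm3, no coordinate is given. Alternatives changed the pseudocount, the filter, the scaling, the variance model and the block, and left out each library.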

Additional observations from a re-analysis of the deposited data

Results flagged for a closer look

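For 18 genes the genotype difference on the control diet differed from that on high sugar by the limma interaction test, with all p-values adjusted over 9367 genes. The value given for each is the control-diet log2 fold change minus the high-sugar one. It was 2.09 for CG8389, 2.76 for CG15553, 3.26 for CG8665, 1.85 for Cyp6d5 and -4.35 for CG6839, and these 5 calls held in all 12 runs that left out 1 library. CG8389 was close to level on the control diet, with a log2 fold change of 0.18, and lower on high sugar, at -1.90. CG8665, which encodes a folate enzyme of the aldehyde dehydrogenase family, was at -0.74 on the control diet without a call and at -4.0 on high sugar. CG6839 was at -0.36 on the control diet and at 3.99 on high sugar, where control libraries averaged 3.42.

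The other 13 calls were each lost in at least 3 of those runs. Among enzymes of detoxification and redox the value was -1.12 for Gclc, -1.99 for Cyp6g2, -1.10 for Cyp6t3 and -2.18 for Cyp304a1. Among genes of sugar and purine metabolism it was -1.62 for Mal-A6, 2.64 for CG1208 and -1.21 for ry, the xanthine dehydrogenase gene. It was 3.71 for blanks, 1.54 for cpx, -1.68 for CG3074 (Swim), -1.12 for PI4KIIIalpha, -1.40 for QC and 1.25 for CG33080. CG33080 was called in opposite directions, at 0.56 on the control diet and -0.69 on high sugar, but its control-diet call (adjusted p = 0.036) was lost in 6 of these 12 runs, at up to 0.13, and without the intensity trend.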

How the results depend on the processing

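The numbers of control-diet calls stayed within 1.5 times of 400 and 402 under pseudocounts, filters, scalings and models, and with limma voom on recovered reads were 386 higher and 418 lower. With each of the 12 libraries left out in turn they ranged from 233 to 463 higher and from 280 to 409 lower. Without labelled replicate 1, the higher genes were 41.5% of the calls in place of 49.9%. High-sugar calls ranged from 414 to 702 higher and from 351 to 653 lower, and calls on both diets in the same direction from 402 to 520. The 18 calls of the difference between diets ranged from 6 to 30 with 1 library left out, and became 10 without the intensity trend, 28 with a pseudocount of 5 and 34 with robust variance moderation; the cause was not tested. Of single genes named, Obp99b changed from -1.12 to 0.00 under quantile normalization, which by construction gives a gene of equal rank in every library equal values.

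Replicate numbers are shared between groups, but nothing in the labels ties same-numbered libraries together. Their deviations correlated at 0.001, -0.073 and 0.164 over 8314 genes on the control diet, and not every library correlated best with its own number. With the replicate block 366 genes were higher and 340 lower.

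Calls were fewest among low genes. When genes were split into 4 equal bins by level, 2.43% of the lowest were called and 17% of the highest. The part of depth in this was not tested.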

Other observations

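Some genes with large changes that belong to none of the lists were looked at after their values were seen. CG4362 measured 81.36, 61.55 and 85.39 in control against 822.9, 816.2 and 830.7 under the svp RNAi label, where the libraries were nearly equal. The gene tomosyn, which encodes a SNARE-binding regulator of secretion, measured 368.5, 363.4 and 306.2 in control and 2493, 2606 and 2017 in the labelled libraries. Its log2 fold change was 2.77 ± 0.13 (SE), with a limma adjusted p of 2.5e-08. CG32557 (Mco4), a multicopper oxidase, rose by 2.90 ± 0.39 (SE), although its control libraries differed among themselves, at 514.4, 670.3 and 188.9. The kinesin gene Klp54D rose by 2.68 ± 0.38 (SE) from levels of 1.68 to 5.47. All of these calls held in every run that left out 1 library.

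The genes bw and CG30181 (ppk3) are neighbours on arm 2R in Release 6 and had the first and the third largest rise in the table, at 5.08 and 4.58 on the control diet and 6.01 and 4.65 on high sugar.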
